A study of Homo sapiens with 8 samples.

Results

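The genes described here encode the aminoacyl-tRNA synthetases, the enzymes that charge each tRNA with its amino acid, together with AIMP1 and AIMP2, scaffold proteins of the multi-synthetase complex. A fixed list of 38 gene symbols was looked up in the gene column of a genome-wide CRISPR knockout screen, and 37 of them were found among 19114 genes. They fell into 20 genes of cytosolic synthetases, 15 genes of mitochondrial synthetases, whose symbols end in 2, and the 2 scaffold genes. CARS2 was not analysed here. All but 1 of their 148 guides passed the filter on low counts, so each member was scored on 4 guides except WARS, which was scored on 3. The table uses older symbols, so that NARS, SARS and MARS stand for the genes now called NARS1, SARS1 and MARS1.

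The screen used AsPC-1, an established human pancreatic ductal adenocarcinoma cell line, with stable Cas9 and the Brunello guide library. On day 8 after infection the cells were fixed, stained for Serpin B5, the product of the KLF5 target gene SERPINB5, and sorted by its level into low, bulk and high bins. The bins were of unequal size. By the methods of the paper, bulk took most of the cells and high took the smallest share. Each bin is 1 library, with 102155005 counts for low, 96310376 for bulk and 90421905 for high, so no value has a replicate library and no p-value is given. The series also holds 5 libraries of a transcription factor library, which were not used here. The score of a gene is the mean log2 ratio of its guides between bins, and ± is the standard deviation (SD) over its guides. A positive low versus high score means guides richer in cells with little Serpin B5. The readout itself separated widely, since SERPINB5 scored 7.08 ± 1.29 (4 guides), with mean normalized counts of 6555 in low, 225 in bulk and 43.3 in high. KLF5 scored 4.70 ± 1.19 (4 guides), with 2942, 393 and 153.

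Cells carry separate sets of these enzymes for translation in the cytosol and in mitochondria. The cytosolic set serves all proteins made from nuclear genes and is needed for growth, whereas the mitochondrial set serves the few proteins encoded by mitochondrial DNA. KARS and GARS each encode both forms of their enzyme, and a single polypeptide, EPRS, charges glutamate and proline tRNAs in the cytosol. Several cytosolic enzymes are bound together by AIMP1, AIMP2 and EEF1E1 in the multi-synthetase complex, while others are free. Uncharged tRNA is sensed by the kinase GCN2, which starts the integrated stress response. The deposited table lists guides by number, and no sequence was available to show for them.

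Guides against cytosolic synthetases were on balance richer in Serpin B5-low cells, and those against mitochondrial synthetases were not. The cytosolic genes had a median low versus high score of 0.36, with 17 of 20 above 0, against a median of 0.00 over all 19113 genes scored, of which 50.3% were above 0. The mitochondrial genes had a median of -0.07, with 2 of 15 above 0. The difference between both medians, cytosolic minus mitochondrial, was 0.43. The highest mitochondrial score was 0.17 for EARS2, the glutamate enzyme, and 12 of the 20 cytosolic genes lay above it.

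Few single genes showed a large shift. A gene was counted when its score was at least 1 in size, a 2-fold ratio, and all its guides had the same sign. In low versus high 2 cytosolic genes, NARS and MARS, were counted as richer in the low bin, and 0 members as richer in the high bin. Over all genes 1.03% were counted as richer in the low bin and 0.476% as richer in the high bin. At a lower limit of 0.5 there were 7 cytosolic and 0 mitochondrial genes, against 2.7% of all genes. The first 500 ranks of all genes, which are 2.62% of the 19113, held 9 cytosolic and 0 mitochondrial members.

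**Figure D1:**
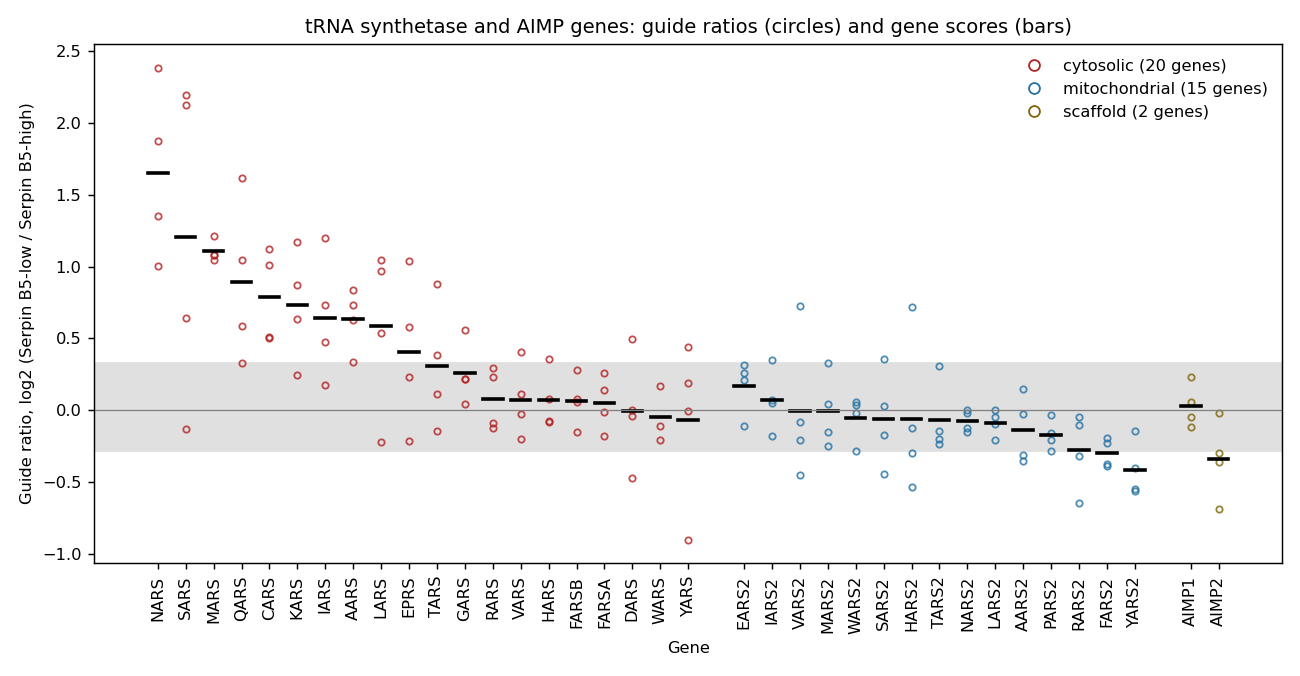
Guide ratios (circles) and gene scores (black bars) of the 37 members, as log2 of the Serpin B5-low over the Serpin B5-high bin, with the central 95% of non-targeting control guides shaded from -0.28 to 0.33. The cytosolic genes run from NARS at 1.65 down to YARS at -0.07, and the mitochondrial ones from EARS2 at 0.17 to YARS2 at -0.41.

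NARS, which charges asparagine tRNA, had the highest score of the members at 1.65 ± 0.60 (rank 55 of 19113). Its 4 guides had normalized counts of 515, 1900.45, 1190 and 328 in the low bin. They had 392, 1155, 695 and 219.6 in the bulk bin, and 255, 742, 321 and 58.8 in the high bin. Every guide was most abundant in low and least abundant in high. NARS lies on chromosome 18 from 57600656 to 57621836 (GRCh38, RefSeq), 5855 kb from SERPINB5 on the same arm. The 23 scored genes between them had a median score of 0.18, with 22 above 0, and the 9 neighbours of NARS within 1000 kb had a median of 0.05 and a maximum of 0.24. None of the 23 reached the score of NARS, and the highest of them had 1.21. Beyond SERPINB5, 46 scored genes had a median of 0.15, with 39 above 0. The 186 genes at lower positions than NARS had a median of 0.08, with 123 above 0. The part of this location in its score was not tested.

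SARS, the serine enzyme, scored 1.21 ± 1.14 (rank 147), but its guides disagreed. Ratios were 2.19, 2.13 and 0.64 for the first 3 guides by size and -0.13 for the last. Mean normalized counts of SARS were 929 in low, 660 in bulk and 497 in high. The guide with 2.19 had 1160 in low, 607 in bulk and 250.2 in high, whereas the last guide had 657, 654 and 720. Because of that guide SARS was not counted. Without the strongest guide of each gene the SARS score was 0.88.

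MARS, which charges both the initiator and the elongator methionine tRNA, scored 1.10 ± 0.07 (rank 185), the smallest spread over guides among the cytosolic members. Its 4 guides had ratios of 1.05, 1.08, 1.08 and 1.21, with mean normalized counts of 816 in low, 717 in bulk and 384 in high. Most of the shift of MARS lay between bulk and high.

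QARS, the glutamine enzyme, scored 0.89 ± 0.56 (rank 256), with 4 of 4 guides positive. Its mean normalized counts were 519 in low, 537 in bulk and 365 in high, so on average its guides were most abundant in bulk and poorest in the high bin. The guide with the highest ratio, 1.61, was also the least abundant, with 92.2 normalized counts in low, 153 in bulk and 26.7 in high.

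Further down, CARS (cysteine) scored 0.79 ± 0.33, KARS (lysine) 0.73 ± 0.39, IARS (isoleucine) 0.65 ± 0.43 and AARS (alanine) 0.63 ± 0.22, each with 4 of 4 guides positive. LARS (leucine) had 0.59 ± 0.58 with 3 of 4 guides positive. EPRS, the joint glutamate and proline enzyme, had 0.41 ± 0.53, TARS (threonine) 0.31 ± 0.44 and GARS (glycine) 0.26 ± 0.22. KARS guides had mean normalized counts of 1729 in low, 1474 in bulk and 1165 in high, and GARS guides 768, 718 and 630.4. From each gene to the next in this order the SDs over guides overlapped.

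The other 8 cytosolic genes had scores within 0.1 of 0. RARS (arginine), VARS (valine), HARS (histidine) and both phenylalanine subunits, FARSB and FARSA, lay between 0.05 and 0.08. DARS (aspartate) had -0.00 ± 0.39, WARS (tryptophan) -0.05 ± 0.20 (3 guides) and YARS (tyrosine) -0.07 ± 0.58. Mean normalized counts in low, bulk and high were 948, 945 and 938 for DARS, 1079, 1046 and 1167 for WARS, and 824, 807 and 819 for YARS. In YARS a single guide had -0.90 and the remaining guides lay between -0.01 and 0.44. The guide of WARS that was left out had raw counts of 12 in low, 16 in bulk and 0 in high, and with it the score of WARS was 0.39.

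Counted by guide, 40 of 79 cytosolic guides lay above the central 95% of the 994 non-targeting control guides, and 2 lay below it. That is 50.6% above, against 12.2% of all guides that target genes. Of the 60 mitochondrial guides 4 lay above and 13 below, or 21.7% below against 13.6% of all targeting guides. Guides of the same gene share their target, so these counts describe the guides and are not independent values.

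Most mitochondrial synthetases had small negative scores. YARS2 (tyrosine) was lowest at -0.41 ± 0.19, rank 503 from the bottom, with 4 of 4 guides negative. Its mean normalized counts were 1070 in low, 1138 in bulk and 1466 in high. FARS2 (phenylalanine) had -0.30 ± 0.10 and RARS2 (arginine) -0.28 ± 0.27, both with 4 of 4 guides negative. FARS2 had 811, 952 and 990.0 normalized counts in low, bulk and high, and RARS2 905, 1032 and 1076. In all, 5 mitochondrial genes had no positive guide, and the share of all genes with no positive guide was not counted. At the other end IARS2 (isoleucine) scored 0.07 ± 0.22 (1249, 1281 and 1197 normalized counts) and EARS2 0.17 ± 0.19 (1281, 1257 and 1150.1). The remaining 10 lay between -0.17 for PARS2, the proline enzyme, and -0.00 for VARS2, the valine enzyme.

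Within the same amino acid the cytosolic enzyme scored higher in 15 of 15 cases. The difference had a median of 0.38, and it was largest for asparagine (1.73), serine (1.27) and methionine (1.11). For tryptophan (0.01), valine (0.08) and histidine (0.13) it was smaller than the SD over guides of both genes. For glutamate (0.24), tyrosine (0.34) and threonine (0.38) it was smaller than the SD of the cytosolic gene. Glutamate and proline share EPRS on the cytosolic side, and the 2 phenylalanine subunits were averaged.

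**Figure D2:**
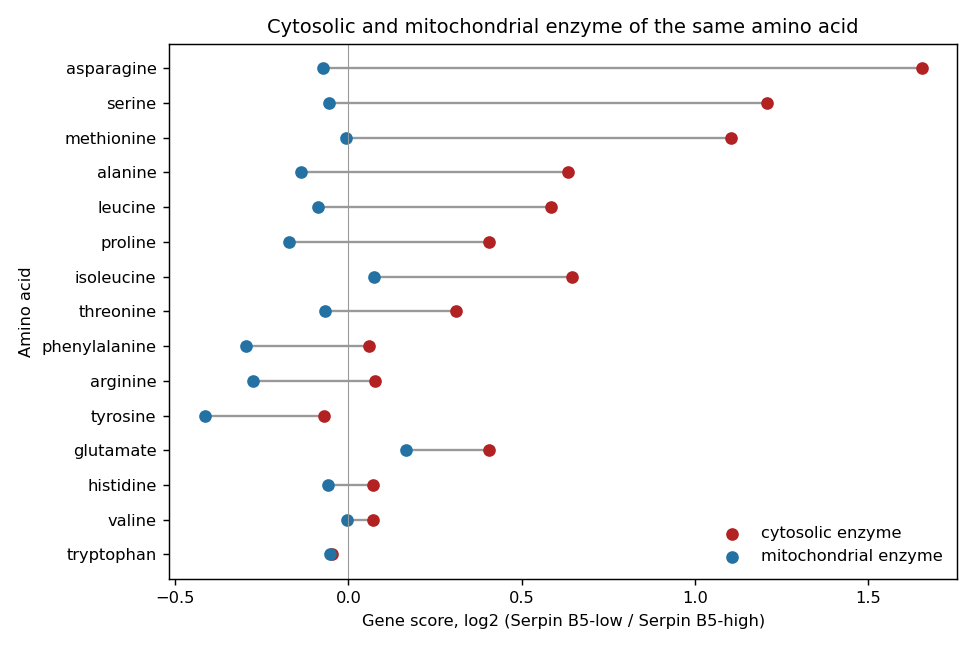
Gene scores, log2 of low over high, of the cytosolic (red) and mitochondrial (blue) enzyme for each of 15 amino acids, ordered by their difference. The lines are longest for asparagine (1.73) and serine (1.27) and shortest for tryptophan (0.01).

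The 3 bins separated the compartments in different ways. The comparisons with bulk share the bulk library, and each value is given on its own. In high versus bulk the cytosolic genes had a median of -0.23, with 16 of 20 below 0, and the mitochondrial genes -0.05, with 9 of 15 below 0. Over all genes this median was -0.01. In this comparison 3 cytosolic genes were counted as poorer in the high bin, QARS (-1.11 ± 0.87), NARS (-1.04 ± 0.56) and MARS (-1.01 ± 0.38), against 0.277% of all genes. All 3 lay close to the limit, and 0 were counted with a pseudocount of 20, with the median or pooled counts over guides, or without the strongest guide. With pooled counts QARS had -0.56, NARS -0.84 and MARS -0.90. At the limit of 0.5 there were 5, against 1.31% of all genes, and 0 members were richer in the high bin, against 1.36%.

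In low versus bulk the cytosolic median was 0.10 and no member was counted, while 0.0785% of all genes were counted as richer in the low bin. SARS (0.64 ± 0.63) and NARS (0.61 ± 0.17) passed the limit of 0.5, which 0.947% of all genes did, and 0 members passed it on the poorer side, against 0.0262%. IARS had 0.37 ± 0.33 and LARS 0.31 ± 0.30, whereas MARS had 0.09 ± 0.32 and QARS -0.22 ± 0.34. Of the 9 cytosolic genes that scored at least 0.5 in low versus high, 6 had a larger difference between bulk and high than between low and bulk. High versus bulk was also the wider comparison in general. Over all targeting guides the SD of the ratios was 0.29 there and 0.20 in low versus bulk. The share of all genes with the larger difference between bulk and high was not counted.

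Mitochondrial guides were slightly poorer in the low bin than in bulk. Their low versus bulk median was -0.12, with 13 of 15 genes below 0, against 9848 of all 19113 genes. Mitochondrial ribosomal proteins had a median of -0.08 with 65 of 76 below 0, and mitochondrial translation factors -0.07 with 7 of 8 below 0. LARS2 (-0.23 ± 0.10), FARS2 (-0.22 ± 0.09), VARS2 (-0.21 ± 0.09) and RARS2 (-0.20 ± 0.12) had 4 of 4 guides below 0, as did NARS2 (-0.10 ± 0.04). The bulk bin was the richest of the 3 for 8 of 15 mitochondrial genes (53.3%) and for 26.9% of all genes. The order low, bulk, high from richest to poorest held for 12 of 20 cytosolic genes and 1 of 15 mitochondrial genes, against 24.8% of all genes.

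**Figure D3:**
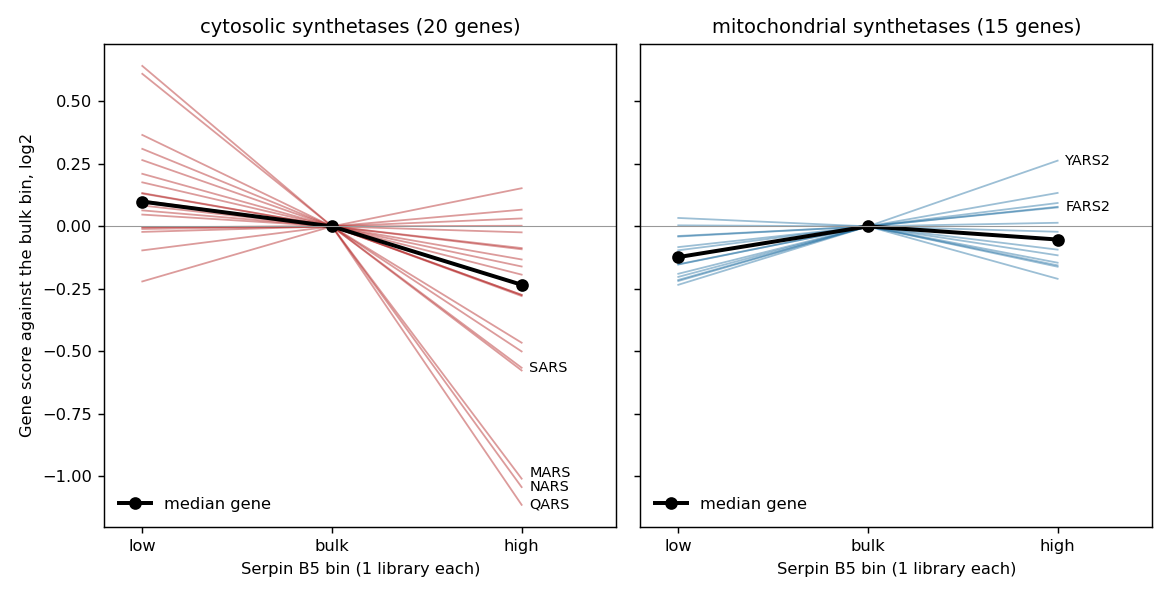
Gene scores against the bulk bin, on the log2 scale, for each cytosolic (left) and mitochondrial (right) synthetase gene in the low, bulk and high bins, with the median gene in black. The cytosolic median falls from 0.10 in low to -0.23 in high, and the mitochondrial median is -0.12 in low and -0.05 in high.

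Guide abundance also differed between the compartments. Cytosolic genes had a median of 700.5 normalized counts per guide over the 3 bins, with 16 of 20 below the median gene, and mitochondrial genes had 1229, with 5 of 15 below it. The median of all genes was 1131. In 13 of 15 amino acids the cytosolic guides were the less abundant. No plasmid or early library was analysed here, so loss of cells during growth and the makeup of the library cannot be told apart.

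Over all genes the quartile of lowest abundance stood apart from the others. In this quartile, up to 834 normalized counts, 2.74% of genes were counted as richer in the low bin and 0.544% as richer in the high bin. As richer in the low bin, 0.586% were counted in the second quartile and 0.398% in both the third and the highest. The SD of the scores was 0.37 in the lowest quartile and 0.24 in each of the others. This lowest quartile held 13 cytosolic genes and 1 mitochondrial gene. The 13 had a median score of 0.41, and the 4779 genes of that quartile had a median of 0.03. Of the cytosolic genes that scored above 0.5, AARS, KARS and CARS had 1512, 1456 and 1350 normalized counts, and the others had fewer than the median gene. The part of abundance in the difference between compartments was not tested.

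**Figure D4:**
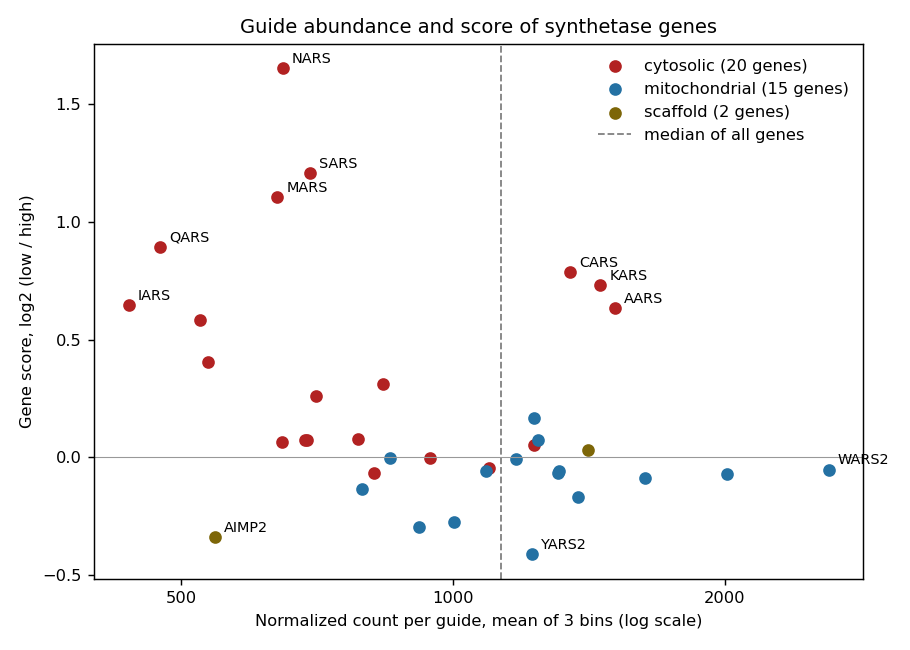
Gene score, log2 of low over high, against normalized counts per guide (mean of 3 bins, log axis) for the cytosolic, mitochondrial and scaffold genes. NARS, SARS, MARS and QARS lie left of the median of all genes (dashed, 1131), and CARS, KARS and AARS lie right of it.

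The 8 enzymes of the multi-synthetase complex had a median low versus high score of 0.62, and the 12 free cytosolic enzymes 0.17. Both lists held high and low values, from DARS at -0.00 to MARS at 1.10 in the complex and from YARS at -0.07 to NARS at 1.65 among the free enzymes. Of the scaffolds, AIMP1 scored near 0, within the range of the complex enzymes, and AIMP2 scored below that range. AIMP1 had 0.03 ± 0.15, with mean normalized counts of 1396 in low, 1417 in bulk and 1424 in high, and AIMP2 had -0.34 ± 0.28 with 4 of 4 guides negative. AIMP2 guides had mean normalized counts of 513 in low, 475 in bulk and 646 in high, so the bulk bin was the poorest and the high bin the richest. In high versus bulk AIMP2 scored 0.45 ± 0.30 with 4 of 4 guides positive. EEF1E1, the remaining scaffold protein and not a member, scored 0.07 ± 0.23.

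Synthetases are divided by the fold of their catalytic domain into class I and class II. The 9 cytosolic genes of class I had a median score of 0.59 and the 10 of class II 0.28, with EPRS left out because it holds a domain of each. Their interquartile ranges, 0.07 to 0.79 and 0.07 to 0.71, overlapped for most of their length. In mitochondria the medians were -0.03 over 8 genes and -0.07 over 7. KARS and GARS, which supply both compartments, had scores on the cytosolic side.

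Cytosolic elongation and termination factors had a median of 0.57, and 6 of 9 were above 0. The release factor ETF1 was highest at 0.97 ± 0.21, and the translocase EEF2, named after its value was seen, had 0.78 ± 0.54. EIF5A, which helps ribosomes through difficult sequences, stood at the other end with -0.77 ± 0.30 (3 guides, all negative). At the limit of 0.5 3 of these factors were richer in the low bin and 1 in the high bin, against 2.7% and 1.72% of all genes. Mitochondrial translation factors had a median of 0.01 and 0 of 8 at that limit, from TUFM, the mitochondrial elongation factor, at -0.24 ± 0.59 to the initiation factor MTIF3 at 0.20 ± 0.27.

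Ribosomal proteins of the large cytosolic subunit had a median of 1.31, and those of the small subunit 0.44. In the large subunit 32 of 46 were counted as richer in the low bin and in the small subunit 0 of 31, against 1.03% of all genes. At the limit of 0.5 there were 34 and 10, against 2.7%, and all 31 genes of the small subunit scored above 0. The cytosolic synthetases, with their median of 0.36, lay below both. Mitochondrial ribosomal proteins had a median of -0.08, with 57 of 76 below 0, next to the -0.07 of the mitochondrial synthetases. Differences between these lists were not tested.

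Other genes of tRNA charging had a median of -0.02 and 0 of 12 at the limit of 0.5. They ran from QRSL1, a subunit of the mitochondrial amidotransferase that makes glutaminyl-tRNA, at -0.35 ± 0.10, to the tRNA export factor XPOT at 0.15 ± 0.15.

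Genes of the integrated stress response, which uncharged tRNA starts through GCN2, had a median of -0.07, with 8 of 11 below 0 and 0 past the limit of 0.5. EIF2AK1 (-0.09), EIF2AK2 (-0.05) and EIF2AK3 (-0.02), among those below 0, encode kinases that start the same response to stresses other than uncharged tRNA. The lowest was GCN1L1, the partner that activates GCN2, at -0.37 ± 0.23, and the highest was the phosphatase subunit PPP1R15B at 0.25 ± 0.29. Named after their values were seen, EIF2AK4, which encodes GCN2, scored -0.35 ± 0.17 and the asparagine synthetase ASNS -0.35 ± 0.16. For GCN1L1, EIF2AK4 and ASNS 4 of 4 guides were richer in the high bin. ASNS makes the amino acid that NARS loads onto tRNA, and their scores stood on opposite sides of 0.

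Genes that cut and join tRNA had a median of -0.28, with 10 of 14 below 0. RPP38, a subunit of RNase P, which trims the 5′ end of tRNA, was highest at 0.53 ± 0.55. At the limit of 0.5, 3 genes were richer in the high bin, against 1.72% of all genes, and RPP38 was richer in the low bin, against 2.7%. Among those on the high side, and named after its value was seen, was the tRNA ligase RTCB (-0.55 ± 0.24).

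**Figure D5:**
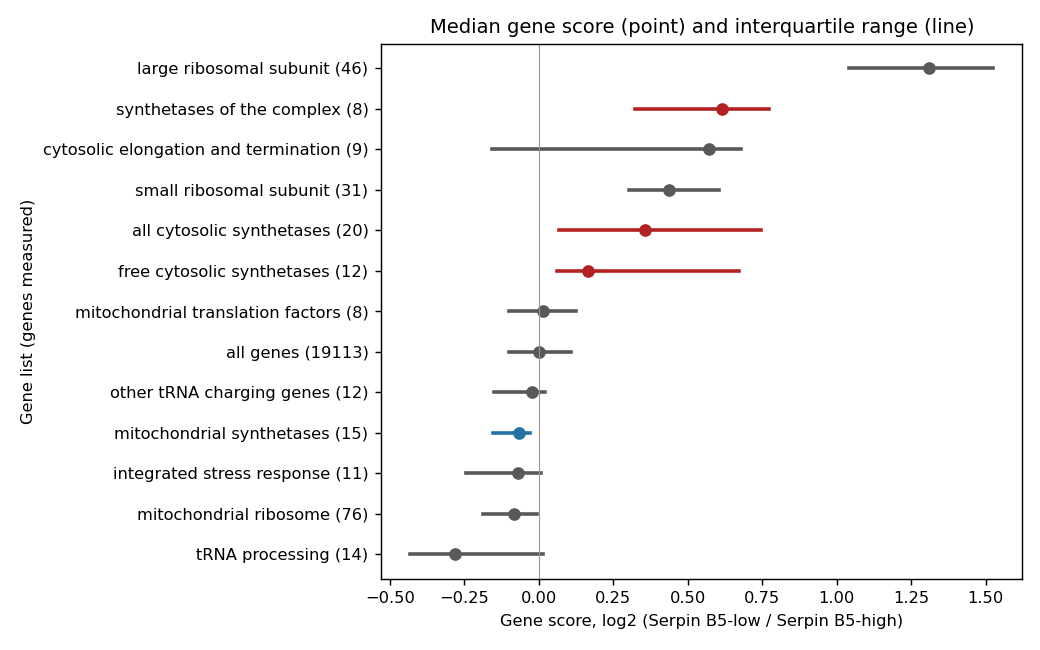
Points are the median low versus high gene scores of the lists (log2), lines their interquartile ranges, and brackets hold the number of genes measured. The synthetases of the complex (0.62) and all cytosolic synthetases (0.36) lie between the large ribosomal subunit (1.31) and all genes (0.00), and the mitochondrial synthetases (-0.07) lie beside the mitochondrial ribosome (-0.08).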

How the data were processed

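The authors deposited raw counts per guide for the genome-wide screen, 1 column for each Serpin B5 bin, with no normalization. The methods of the study name a 1-step PCR from genomic DNA and MAGeCK for analysis, and the submitters' processing notes name the build hg38. The counting tool is not given in the sources used here. Reads are PCR copies without stated molecular identifiers, so no interval from counts is given.

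From the counts, libraries were scaled by median-ratio size factors over 77441 guides, and guides with a mean normalized count under 30 were left out (76980 kept, 994 of 1000 controls among them). Guide ratios were log2 with a pseudocount of 5, centred on the median targeting guide. Gene scores were means over at least 2 guides, which gave 19113 genes. Bins were compared in 3 ways with no test. The scoring was tested on simulated data (Python 3.11.15, numpy 2.4.6, pandas 2.3.3). Positions are those of RefSeq on GRCh38.p14.

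Members and lists were chosen with earlier results of these data known. Named genes were those past the limit, those of highest and lowest score in each compartment, the scaffolds, KARS, GARS, QARS and the ends of each pathway list, and genes beyond this are said to be so. The 5 transcription factor libraries were not used, and some genes of the pathway lists are not reported here by name.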

Additional observations from a re-analysis of the deposited data

How the results depend on the processing

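Under 10 alternatives (scaling, pseudocount, count minimum, gene score, and low against bulk and high) the low versus high median stayed between 0.20 and 0.40 for cytosolic and between -0.14 and -0.07 for mitochondrial synthetases. Their difference stayed between 0.32 and 0.47, and the cytosolic enzyme was higher in 14 or 15 of 15 amino acids. The mitochondrial high versus bulk median turned positive in 2 of 9 alternatives, up to 0.01. The count of cytosolic genes past the limit in low versus high was 1 with low against bulk and high, and 7 at the limit of 0.5. In high versus bulk it was 0 with a pseudocount of 20, with medians or pooled counts over guides and without the strongest guide, and 5 at the limit of 0.5, and in low versus bulk it was 2 there, against 0. The scores of MARS and QARS with low against bulk and high were 0.51 and 0.21. That setting divides low by the sum of bulk and high, and in low versus bulk MARS had 0.09 and QARS -0.22. The part of this in the lower scores was not tested. A gene score counted as moved when it shifted by more than the SD over guides. For medians and their differences the median of those SDs was used. Counts of genes and guide abundances were judged by their fold change instead. Among medians, differences, counts and abundances 8 values moved and 222 stayed the same. Among gene scores 6 moved and 1030 stayed the same. No paired analysis was possible because each bin was 1 library. The bins have no replicate libraries, and guides with few counts have the least precise ratios.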
